A study of Mus musculus with 2 samples.

Results

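Ribosomal proteins are the protein components of the ribosome, and the genes described here encode those of the cytoplasmic ribosome. They were chosen by symbol: genes named Rpl or Rps followed by a number, plus the stalk genes Rplp0, Rplp1 and Rplp2 and the gene Rpsa, with at least 1 transcript annotated as protein-coding and no pseudogene suffix. Of 55536 mouse genes in the tables, 89 symbols matched and 83 had a protein-coding transcript: 51 of the large subunit and 32 of the small subunit. No measured value entered that choice. The 6 matches left out, Rps4l, Rps12l1, Rpl32l, Rpl6l, Rps3a3 and Rps3a2, are annotated as pseudogenes. Of the 83 genes, 80 were detected, meaning at least 1 TPM in both libraries; TPM is an abundance corrected for transcript length and scaled to 1 fixed total in every library.

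The material was ribosomal-RNA-depleted total RNA of the nuclear fraction of bone-marrow-derived macrophages from C57BL/6J mice, primary cells grown from marrow. The single group had received Lipid A, the part of lipopolysaccharide sensed by TLR4, at 100 ng/ml for 12 h, a washout of 12 h, and Lipid A again at 100 ng/ml for 120 min. It held 2 biological replicates that carry the same donor label, prepared from 1 µg of RNA (replicate 1) and 500 ng (replicate 2). Input amount and replicate therefore cannot be told apart. Nothing in the labels says that the cells came from separate animals, so the spread between the libraries may be partly technical. Animal sex and age are recorded as not collected. One label field names the fraction nucleus and another nucleoplasmic. No untreated group was analysed here, so the values are a description of nuclei after the second exposure, with no comparison of conditions.

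Ribosomal protein genes are expressed in nearly every cell type. Their mRNAs commonly start with a run of pyrimidines, the 5' terminal oligopyrimidine (TOP) motif, through which the mTOR pathway and Larp1 govern translation in the cytoplasm. Their genes are short, are spliced efficiently, and carry small nucleolar RNAs (snoRNAs) in many of their introns. Their proteins are imported into the nucleus, where subunits are assembled, while their mRNAs are translated in the cytoplasm. Ribosomal protein genes have also left many processed pseudogenes, which makes their reads hard to place.

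Replicate 1 held 28450309 expected counts and replicate 2 held 16940220. A count of 0 allows up to 3 counts, equal to 0.105 CPM in replicate 1 and 0.177 CPM in replicate 2. That floor covers counting error only. Genes with an effective length below 200 nt, mostly small structural RNAs, held 76.7% of the TPM in replicate 1 and 61.8% in replicate 2, and mitochondrial genes held 4.15% and 10.3% of the counts. All 8 macrophage markers were detected (Lyz2 1300 and 1229 TPM, Csf1r 159 and 191 TPM). Of 6 T cell markers, Cd4 alone was detected (13.9 and 13.5 TPM), with Cd3e and Cd3g at 0 counts. Of 3 endothelial markers, Kdr alone was detected (12.0 and 8.30 TPM). The 4 B cell, 3 NK cell, 5 neutrophil, 4 fibroblast and 4 erythroid markers were not detected. Among them Alas2 was at 0.84 TPM in replicate 1 and passed 1 TPM in replicate 2 (1.77 TPM). These calls are from the gene tables. By the second tool Pecam1 was at 1.45 and 14.4 TPM, Cd3d at 1.00 and 5.57 TPM, and the erythroid marker Alas2 at 1.45 and 3.41 TPM. In such bulk RNA fewer cells of a type and less RNA per cell cannot be told apart.

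The letters at the start sites show which genes carry the pyrimidine run. RefSeq promoter windows (GRCm38.p6, 250 bases before to 50 after each listed start) were matched by symbol to 63 of the 83 genes, which had 75 windows. The 50 bases from 30 before to 20 after the start, read 5′ to 3′ on the gene's strand, are shown for 6 of the 10 most abundant genes, with and without the run, and for the 2 genes whose counts were higher in replicate 2. Capitals mark an unbroken run of 8 or more C and T that touches the 5 bases on either side of the start.
Rps24, chr14:24490648-24490697, plus strand: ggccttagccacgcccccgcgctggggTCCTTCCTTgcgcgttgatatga
Rps9, chr7:3704011-3704060, plus strand: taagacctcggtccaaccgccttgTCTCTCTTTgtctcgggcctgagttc
Rps27, chr3:90213629-90213678, minus strand: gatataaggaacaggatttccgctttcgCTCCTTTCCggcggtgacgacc
Rpl13a, chr7:45128726-45128775, minus strand: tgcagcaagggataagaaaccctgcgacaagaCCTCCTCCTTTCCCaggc
Rpl41, chr10:128549149-128549198, minus strand: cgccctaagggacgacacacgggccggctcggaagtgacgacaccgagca
Rps28, chr17:33824543-33824592, minus strand: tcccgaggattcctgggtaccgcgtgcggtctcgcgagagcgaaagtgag
Rps15a, chr7:118116128-118116177, minus strand: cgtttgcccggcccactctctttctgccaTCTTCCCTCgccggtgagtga
Rpl5, chr5:107900498-107900547, plus strand: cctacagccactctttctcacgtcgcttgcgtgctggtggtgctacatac

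Rps24, Rps9, Rps27, Rpl13a and Rps15a carried such a run at the listed start, while Rpl41, Rps28 and Rpl5 did not. A run was present in 24 of 75 windows of ribosomal protein genes (32%) and in 9.38% of all 32851 windows. The letters CGGAAG, the core to which ETS-family factors bind, stood in 60% of the 75 full windows on either strand, against 16.9% of all windows. The letters GGGCGG, bound by Sp1-type factors, stood in 60% against 35.7%, AAGATGG, bound by YY1, in 16% against 6.34%, and the TATA letters TATAAA in 9.33% against 13.6%. CGGAAG and GGGCGG can share letters, and these motifs were chosen after the sequences had been seen. The median GC content was 58% in these windows and 52.7% over all windows. The 24 genes with a run at a listed start had a median of 30.96 TPM in replicate 1 and 29.02 TPM in replicate 2. The 39 genes with a window and no run had 24.5 and 24.8 TPM, with every gene counted, among them the 3 that were not detected. A window gives the annotated start, which may differ from the start used in these cells.

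Ribosomal protein transcripts were present at similar, moderate levels. Their median was 26.5 TPM in replicate 1 and 27.2 TPM in replicate 2 (26.9 ± 0.495, SD, n = 2), and the middle 50% of the genes lay between 15.8 and 38.6 TPM in replicate 1 and between 16.5 and 38.7 TPM in replicate 2. In both libraries 75 of the 83 genes reached 10 TPM, 30 stayed between 20 and 40 TPM, 7 reached 50 TPM and 1 reached 100 TPM. Among the 80 detected genes the highest and the lowest level were 20.6-fold apart in replicate 1 and 28.8-fold apart in replicate 2. The median gene stood above 85.6% of the 8726 detected protein-coding genes in replicate 1 and above 80.6% in replicate 2. None was among the 100 highest protein-coding genes, and 9 (replicate 1) and 3 (replicate 2) were among the 500 highest. The plot of levels by library shows both values of each gene drawn.

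**Figure D1:**
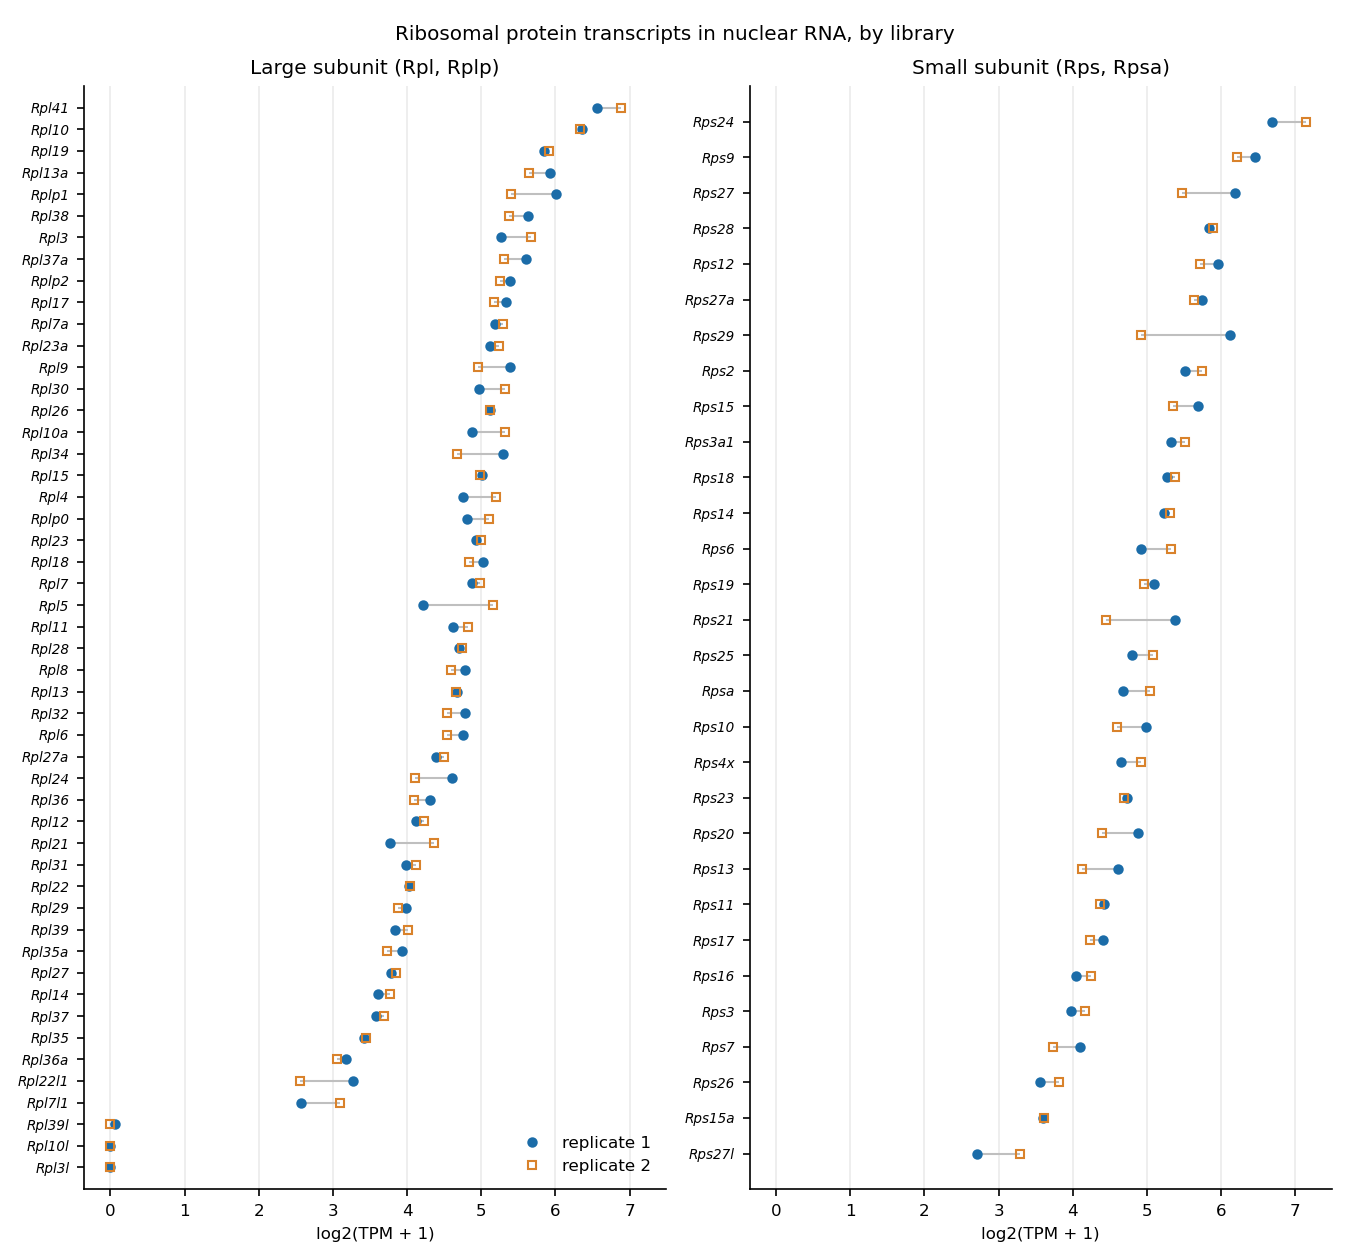
Level of the ribosomal protein genes, detected or not, with 3 of the detected genes not drawn, as log2(TPM + 1) in replicate 1 (filled circles) and replicate 2 (open squares), large subunit on the left and small subunit on the right, ordered by mean level, with a line joining the libraries. Most genes lie close together in both libraries, Rps24 (102 and 140 TPM) leads, and Rpl3l, Rpl10l and Rpl39l lie at or near 0.

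All 83 genes together summed to 2573 TPM in replicate 1 and 2521 TPM in replicate 2. As a share of expected counts they took 0.222% of replicate 1 and 0.177% of replicate 2 (0.1996% ± 0.0319, SD, n = 2). The TPM sums lay closer together than the count shares. A TPM depends on how much of the library the small structural RNAs take. When genes with an effective length below 200 nt and mitochondrial genes were left out and TPM was rescaled, the median of the 77 ribosomal protein genes that remained was 124 TPM in replicate 1 and 84.7 TPM in replicate 2. The near-equal values of the libraries therefore hold only for the deposited, unrescaled TPM of the gene tables. By the second tool the medians of the 83 genes were 14.1 TPM in replicate 1 and 18.0 TPM in replicate 2. Their sums by that tool were 1288 and 1639 TPM.

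Among the small-subunit proteins, Rps24 had the highest level of all 83 genes. Rps24 (chromosome 14, 24487125 to 24496959, mm10, plus strand), a protein needed to process the precursor of 18S ribosomal RNA and mutated in some cases of Diamond-Blackfan anaemia, was measured at 102 TPM in replicate 1 and 140 TPM in replicate 2. It ranked 251st and 218th among detected protein-coding genes. Rps9, which lines the channel where mRNA enters, followed at 87.0 and 73.0 TPM. Rps27, a zinc-finger protein, was at 71.9 TPM in replicate 1 and 43.5 TPM in replicate 2. Rps28 was at 56.1 and 58.4 TPM. Rps12 was at 61.3 and 51.7 TPM. These 5 genes were the small-subunit genes among the 10 with the highest mean. The order among Rps27, Rps28 and Rps12 was not the same in both libraries, and their means (57.7, 57.3 and 56.5 TPM) differ by less than the spread of Rps27 (SD 20.1).

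Among the large-subunit proteins, Rpl41, which encodes an extremely short and basic peptide, was highest at 93.3 TPM in replicate 1 and 117 TPM in replicate 2. Rpl10, which joins the subunit late in its assembly, was at 80.9 and 79.2 TPM. Rpl19 was at 56.5 and 59.3 TPM. Rpl13a, known in human monocytic cells for a second role in silencing inflammatory mRNAs after interferon-gamma, was at 59.6 and 49.2 TPM. Rplp1, an acidic stalk protein, was at 63.1 TPM in replicate 1 and 41.4 TPM in replicate 2. Rpl41 lay above the other 4 genes in both libraries. As a group the 51 large-subunit genes had a median of 26.0 and 25.7 TPM, and the 32 small-subunit genes 28.9 and 29.2 TPM. The difference of their medians on the log2(TPM + 1) scale, large minus small, was -0.16 ± 0.02 (SD, n = 2), and it was negative in both libraries. The 3 undetected genes are all of the large subunit.

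The stalk recruits the elongation factors to the ribosome, and its 3 proteins were unequal at the transcript level. Rplp0, the stalk base, was at 27.0 TPM in replicate 1 and 33.4 TPM in replicate 2. Rplp2, the partner of Rplp1, was at 40.7 and 37.2 TPM. Both acidic proteins, which bind the base in more than 1 copy, stood above Rplp0 in each library. Rpl5 and Rpl11 form with 5S ribosomal RNA a particle that also binds Mdm2, the ubiquitin ligase of p53. Rpl11 was at 23.5 and 27.2 TPM. Rpl5 was at 17.6 TPM in replicate 1 and 34.8 TPM in replicate 2, so that it lay below Rpl11 in replicate 1 and above it in replicate 2. Rpsa, the small-subunit protein also known as the laminin receptor precursor, was at 24.5 and 32.1 TPM. Rps6, the protein phosphorylated by the S6 kinases, was at 29.3 and 39.1 TPM. Each of these 7 genes lay within the range of the other ribosomal protein genes.

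Paralogs, some of them tissue-restricted forms, were absent or had lower TPM values than their common partners. Rpl3l, a form of striated muscle, had 0 counts in both libraries, against 37.4 and 50.04 TPM for Rpl3, which lies near the peptidyl transferase centre. The second quantification tool listed Rpl3l at 0.148 and 0.211 TPM. Rpl10l, a testis form of Rpl10, had 0 counts in both libraries. Rpl39l, also a testis form, had 1 count in replicate 1 and 0 in replicate 2, against 13.3 and 15.1 TPM for Rpl39, a small protein of the exit tunnel. Rpl22l1 was detected at 8.68 and 4.86 TPM, below Rpl22 at 15.3 and 15.5 TPM in both libraries. Its credibility interval was wide, at 7.72 to 64.3 TPM in replicate 1 and 4.39 to 92.3 TPM in replicate 2. Those of Rpl22 (13.2 to 17.7 and 12.6 to 19.1 TPM) lay within it, so the order of this pair is not resolved. Rps27l, known as a p53 target, was at 5.51 and 8.74 TPM, below Rps27. Rpl7l1 was at 4.95 and 7.52 TPM, below Rpl7 at 28.3 and 30.7 TPM. By TPM value every paralog named here was lower than its partner in both libraries, with the limit given for Rpl22l1. Rps4l, left out because it is annotated as a pseudogene, was at 0.320 and 0.260 TPM, against 24.2 and 29.2 TPM for Rps4x.

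Some ribosomal proteins have symbols that the rule does not match. Fau, whose product carries a ubiquitin-like domain ahead of the ribosomal protein S30, was at 78.8 and 82.4 TPM. Rack1, a scaffold on the small subunit, was at 24.6 and 30 TPM. Rpl36al was at 16.5 and 12.8 TPM and Rps27rt at 0.300 and 0.610 TPM.

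Most other gene groups with a shared housekeeping role had lower medians. The 81 nuclear-encoded respiratory chain genes had medians of 9.10 and 9.83 TPM, led by Atp5b, Cox7c and Cox4i1. On the log2(TPM + 1) scale the median ribosomal protein gene stood 1.41 ± 0.05 (SD, n = 2) above them. The 39 proteasome genes had medians of 15.2 and 19.3 TPM, led by Psmb10, Psmb6 and Psmb8, and the difference to ribosomal protein genes was 0.62 ± 0.21. The 75 mitochondrial ribosomal protein genes, which serve the separate ribosome of mitochondria, had medians of 2.86 and 3.60 TPM. The 18 translation factor and related genes with TOP mRNAs, among them Fau and Rack1, came closest, with a lower median in replicate 1 (22.1 TPM) and a higher one in replicate 2 (30.2 TPM), led by Eef1a1 (255 and 305 TPM). The 20 ribosome assembly genes had 3.13 and 4.93 TPM. Among the 12 genes that govern growth and the translation of these mRNAs, with medians of 6.36 and 12.0 TPM, Larp1 was at 36.4 and 38.2 TPM and Mdm2 at 71.1 and 69.8 TPM. The 2 libraries allow no test between lists, and these differences are given as descriptions.

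**Figure D2:**
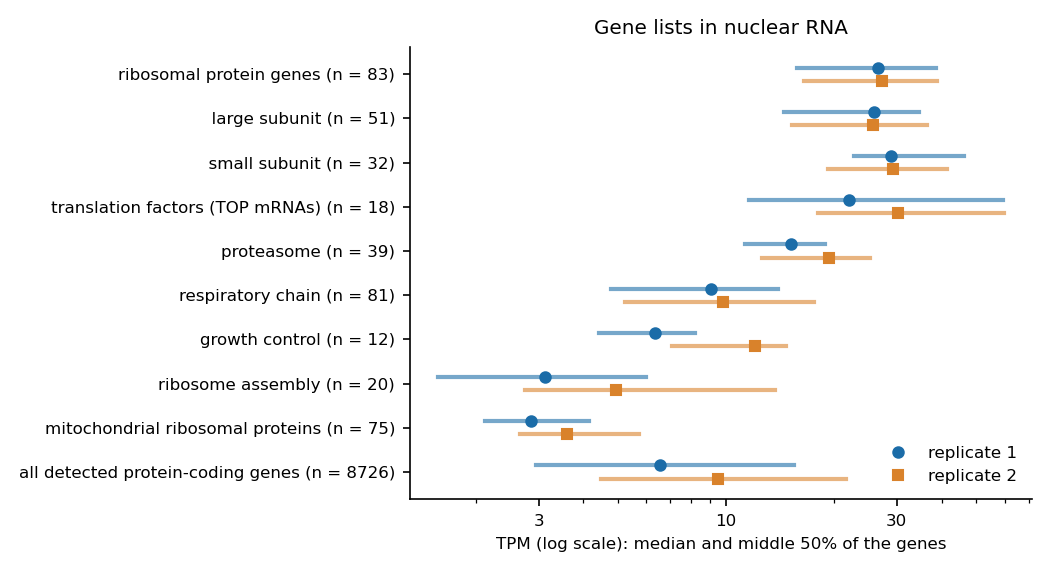
Median (symbol) and middle 50% of the genes (bar) of each list in TPM on a log axis, replicate 1 as circles and replicate 2 as squares, with the number of genes in brackets. Ribosomal protein genes (medians 26.5 and 27.2 TPM) lie above the respiratory chain (9.10 and 9.83) and mitochondrial ribosomal proteins (2.86 and 3.60) in both libraries.

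The libraries differed in their ribosomal protein counts, and nearly all of these genes leaned the same way. For every gene with a mean of 10 or more counts, replicate 2 was set against replicate 1 by an exact binomial test, two-sided, with TMM-scaled library sizes, and p-values were adjusted by the Benjamini-Hochberg method over all 14698 genes tested. This test compares the libraries, not conditions, and covers counting error only. Of 80 ribosomal protein genes tested, 66 were lower in replicate 2, 2 were higher and 12 had no call. Over all tested genes 30.2% were lower, 29.7% were higher and 59.9% were called in either direction. The share of ribosomal protein genes called lower was thus 82.5%, against 30.2% over all genes. Detected protein-coding genes, a closer background, leaned lower themselves: of 8724 tested, 3671 were lower and 2161 were higher. With library-size scaling 56 were lower and 4 higher, with 22.1% of all genes lower and 39.2% higher. Their median log2 ratio of replicate 2 to replicate 1 was -0.56, with the median over all genes at 0.00, and 74 of 80 ratios were below 0. The 3 undetected genes had too few counts to be tested.

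On the TPM scale the direction of many genes differed from that on the count scale. In TPM 44 of the 80 detected genes were higher in replicate 2 and 36 were lower, and 70 of 80 stayed within 1.5-fold (87.5%). Of the detected protein-coding genes 83.8% were higher in replicate 2 in TPM, and 52.0% stayed within 1.5-fold. The median tested gene had a log2 ratio of 0.43 in TPM + 1, and relative to that value the median ribosomal protein gene was at -0.41. The authors' credibility intervals of the TPM values overlapped between libraries for 55 of the 80 genes (68.8%), against 37.8% of the 8726 detected protein-coding genes. The spread between the libraries, estimated with edgeR as a biological coefficient of variation, was 0.337 over all tested genes and 0.310 over the ribosomal protein genes. Of the 80 genes 73 had counts within 2-fold after scaling, against 82.7% of all tested genes.

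Rps29, a small zinc-binding protein of the subunit's head, was furthest down. It had 536 counts in replicate 1 and 109 in replicate 2 (68.8 and 29.3 TPM), a log2 ratio of -1.70 with adjusted p = 8.88e-36 by the exact binomial test. Rps21 had 326 and 78 counts (40.7 and 20.8 TPM), and its log2 ratio was -1.47. Rps27 had 448 and 131 counts, with a log2 ratio of -1.19. Rps7, a protein that also binds Mdm2, had 509 and 152 counts (16.1 and 12.3 TPM), with a log2 ratio of -1.16. Rplp1 had 819 and 245 counts, also with -1.16. These 5 genes were lower in replicate 2 in the TPM of the gene tables as well as in counts; by the second tool Rps7 was at 12.0 and 18.0 TPM. Rps29, Rps21 and Rps27 are 3 of the 6 ribosomal protein genes with an effective length below 200 nt.

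Rpl5 went the other way. It had 638 counts in replicate 1 and 583 in replicate 2, which after scaling is a log2 ratio of 0.45 with adjusted p = 1.88e-07 by the exact binomial test. Its credibility interval was 15.7 to 19.3 TPM in replicate 1 and 29.5 to 37.9 TPM in replicate 2, with no overlap. Rps15a had 603 and 472 counts (11.2 and 11.3 TPM), a log2 ratio of 0.23 with adjusted p = 0.018 by the same binomial test. Its effective length was 1097 nt in replicate 1 and 1991 nt in replicate 2, for which a count ratio does not correct. In TPM + 1, relative to the median tested gene, the log2 ratio of Rps15a was -0.41. Its call was lost without the filter on counts (log2 ratio 0.19) and with the second tool (0.035), while that of Rpl5 held under each scaling and with the second tool (0.22). Rps27l (0.15), Rpl31 (0.09) and Rpl7l1 (0.08) had the next highest log2 ratios and were not called. Rpl5 had the highest ratio on both scales, and its reads are also among the hardest to place, as the values on shared sequence show.

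The log2 ratio moved with gene length. All 6 ribosomal protein genes with an effective length below 200 nt were called lower in replicate 2, against 30.2% of all tested genes. Their median log2 ratio, relative to all tested genes, was -0.98. In the 18 genes of 200 to 400 nt it was -0.64, in the 21 genes of 400 to 600 nt -0.64, in the 22 genes of 600 to 800 nt -0.46 and in the 9 genes of 800 to 1200 nt -0.48. In the 4 genes of 1200 nt or more it was -0.03. In other protein-coding genes the median was higher in each longer class, with values of -0.74 (14 genes), -0.55, -0.48, -0.28, -0.22 and -0.05. Set against other protein-coding genes of the same length class, the median ribosomal protein gene was at -0.16, and 57 of 80 lay below their class. Length classes were added after the data had been seen. Across the 80 genes Spearman's rho between effective length and log2 ratio was 0.41 and Pearson's r was 0.44, as a description over genes that share both libraries. Fragment size was not measured directly. Length minus effective length, a stand-in for it, had a median over long genes of 236 nt in replicate 1 and 217 nt in replicate 2. Input RNA differed too. The part of fragment size and of input in the result was not tested.

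**Figure D3:**
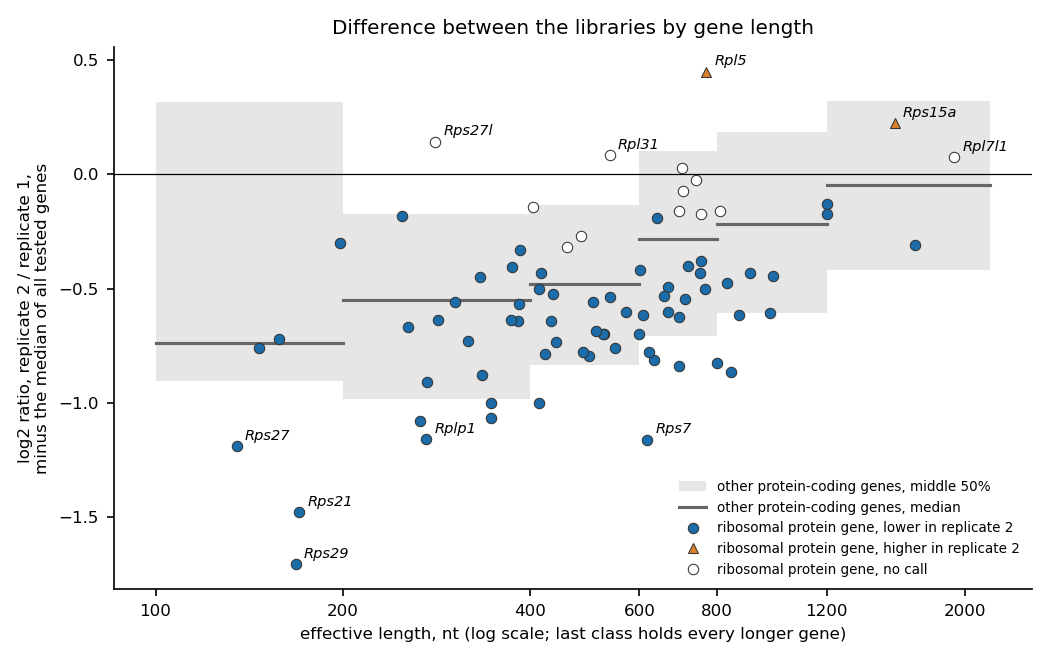
Log2 ratio of TMM-scaled counts, replicate 2 over replicate 1, minus the median of all tested genes, against effective length in nt on a log axis, for the 80 tested ribosomal protein genes; grey bars give the median and middle 50% of other protein-coding genes by length class. Shorter genes tend to lie lower, from -0.98 (median below 200 nt) to -0.03 (1200 nt or more), and Rpl5 and Rps15a are the genes called higher.

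Some other lists also leaned lower in replicate 2. The part of gene length in the differences between lists was not tested. Of 77 respiratory chain genes tested, 38 were lower and 5 higher, with a median log2 ratio of -0.34 and a median effective length of 530 nt, close to the 532 nt of the ribosomal protein genes. Of 37 proteasome genes (median effective length 1075 nt) 24 were lower and 2 higher, with a median of -0.35. Of 74 mitochondrial ribosomal protein genes (1027 nt) 18 were lower and 16 higher, with a median of 0.02. Of 20 ribosome assembly genes 2 were lower and 8 higher, among them Ncl (nucleolin; 18.1 and 42.8 TPM) and Npm1 (nucleophosmin; 19.0 and 44.0 TPM). Of 18 translation factor genes 8 were lower and 5 higher, and of 12 growth control genes 5 were lower and 3 higher. Of the 8 macrophage markers 7 were lower and 1 was higher, with a median log2 ratio of -0.72 and a median effective length of 1916 nt. These shares are to be read against 30.2% lower and 29.7% higher over all genes, and against 3671 lower and 2161 higher of 8724 detected protein-coding genes.

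Many ribosomal protein genes have annotated transcripts that keep an intron, and in nuclear RNA these took a minor share of the signal for most genes. Among the 80 tested genes 64 have such a transcript. Its median share of the gene's TPM was 13.6% in replicate 1 and 18.3% in replicate 2 (15.9% ± 3.31, SD, n = 2). The 6823 protein-coding genes with such a transcript had medians of 23.4% and 29.7%. In 50 of the 64 genes this share was the larger in replicate 2 (78.1%), against 66.9% of the 6823 genes. It exceeded 50% in both libraries for 4 genes and stayed under 5% in both for 9. Summed over the 80 genes, retained-intron transcripts held 13.5% and 18.0% of the ribosomal protein TPM. These tables do not tell a finished transcript that keeps an intron from a precursor that is not yet spliced.

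In the gene tables, the 4 genes with most of their TPM on retained-intron transcripts were Rps16, Rpl5, Rps20 and Rpl37. Rps16 had 83.9% in replicate 1 and 94.4% in replicate 2, of which a single transcript of 518 nt held 63.8% and 83.2% of the gene. Rpl5 had 84.3% and 76.1%, spread over 4 such transcripts. Rps20 had 86.9% and 72.0%. Rpl37 had 60.7% and 79.1%. No common direction ran through these genes between the libraries. Rps16 and Rpl37 had the larger share in replicate 2 and Rpl5 and Rps20 in replicate 1. By the second tool Rps16 had 71.6% and 69.3% and Rpl5 67.6% and 72.2%, so the directions of both rest on the tool. Further genes exceeded 50% in both libraries by that tool, among them Rpl12 (82.5% and 94.7%) and Rpl10 (67.1% and 70.0%). That tool gave these genes lower totals. Rpl12 was at 2.16 and 4.49 TPM, against 16.3 and 17.7 TPM in the gene tables. Rpl10 was at 20.7 and 27.6 TPM, against 80.9 and 79.2 TPM. A larger share there is therefore not more retained-intron TPM. In the gene tables the next 6 genes were Rpl10a (48.9% and 60.3%), Rps26 (60.0% and 46.8%), Rpl3 (39.1% and 60.4%), Rpl27a (44.2% and 50.1%), Rpl15 (53.1% and 39.7%) and Rpl22l1 (38.4% and 49.9%). For Rps24, the gene with the highest level, the share was 5.66% and 5.28%, and its main transcript of 468 nt, protein-coding, held 54.0% and 74.8%.

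Transcripts annotated as targets of nonsense-mediated decay, a surveillance pathway that acts with translation, exist for 19 of the 80 genes. Their median share was 6.20% in replicate 1 and 4.46% in replicate 2, against 3.09% and 1.61% over 3393 protein-coding genes with such a transcript. Rpsa had 54.8% and 44.6% of its TPM on such transcripts, and Rpl12 44.5% and 57.0%. Rpl13a had 27.9% and 14.4%, and Rpl22l1 19.8% and 11.8%. For Rpl12 the second tool gave 14.4% and 5.31%, so that its value rests on the tool. All transcripts not typed protein-coding held together a median of 15.7% and 23.5% in the 72 genes that have any.

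**Figure D4:**
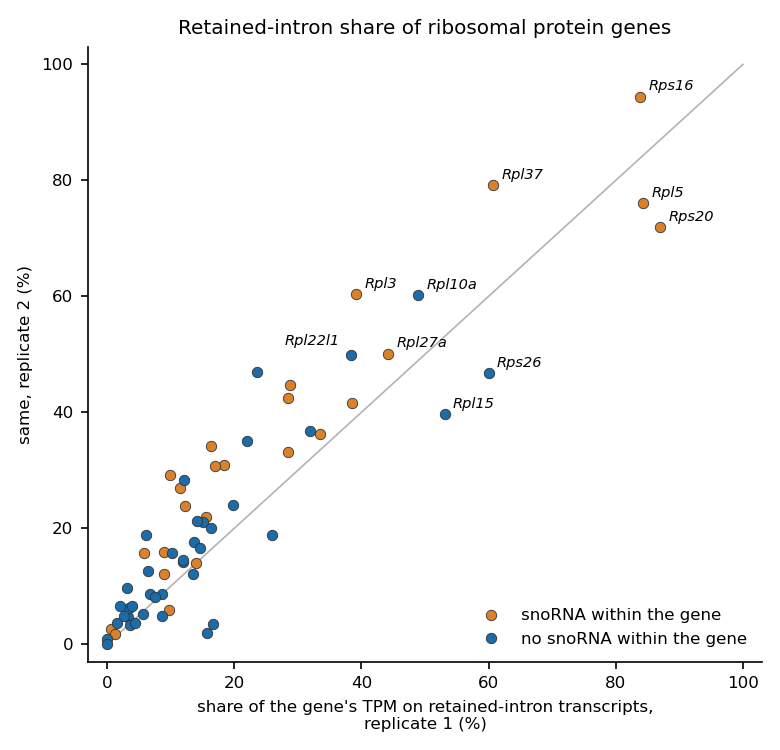
Share of each gene's TPM on transcripts annotated as retained intron (%), replicate 1 on the horizontal and replicate 2 on the vertical axis, for the 64 genes with such a transcript; orange genes hold a snoRNA on the same strand, blue genes do not, and the line marks equal shares. Most points lie above the line (50 of 64 genes), and Rps16, Rpl5, Rps20 and Rpl37 exceed 50% in both libraries.

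Introns of ribosomal protein genes carry guide RNAs for the chemical modification of ribosomal RNA. On the same strand 58 snoRNA genes of 65 to 203 nt lay inside 30 of the genes, with 5 in Rpl4 and 4 in Rpl13a. In the gene tables, a total of 49 had an effective length of 0 in replicate 1, and 47 had 0 counts in both libraries. By the second tool 23 had 0 counts in both, so a count of 0 in the gene tables is no measure of absence. The 2 with at least 10 counts in both libraries of the gene tables were Snord15a (62 and 21 counts) and Snord15b (52.8 and 21.7 counts), both in Rps3. Gm26448 in Rpsa had 142 counts in replicate 1 and 8 in replicate 2 there, and 177 and 54 by the second tool. Snora21 in Rpl23 had 5 and 0 counts there, and 22 and 19 by the second tool. In all, 12 snoRNAs reached 10 counts in both libraries by the second tool, among them Rnu73b in Rps3a1 (41 and 65 counts), which had 0 in the gene tables.

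The host genes were near the others in level and differed in their intron signal. The 30 hosts had medians of 26.2 and 31.4 TPM, and the 50 detected genes with no snoRNA 27.6 and 27.3 TPM. The median share on retained-intron transcripts was 14.8% and 28.04% in hosts and 6.58% and 7.42% in the others, with genes that have no such transcript counted at 0. Of the hosts 27 were lower and 1 was higher in replicate 2, and of the others 39 were lower and 1 was higher. Over all tested genes 30.2% were lower and 29.7% were higher. No test was made between hosts and the others, and a snoRNA that is exonic in a retained-intron transcript shares its letters with that transcript.

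Reads from sequence that several genes share can be placed in more than 1 of them. For each gene the 31-base words of its protein-coding transcripts were looked up in the transcripts of all other genes. In 5 of the 80 detected genes under 10% of the words were shared, in 40 genes 10 to 50%, and in 35 genes 50% or more. Rpl35 shared 99.0% of its words, many with Wdr38, which overlaps it on the opposite strand. Rpl36 shared 94.1% and Rpl23a 89.8%. Rpl7a shared 87.1%, with 167 genes. Rpl5 shared 86.4%, and 44.7% of its words stood in Gm15500, itself listed at 15.2 and 17.0 TPM. Rps6 shared 84.9%, all of it found in the pseudogene Rps6-ps4 (1.96 and 8.20 TPM). Rpl36a (88.3%) and Rps18 (86.2%) also shared more than Rps6. How the authors' tools split reads between such copies is not given in the sources used here, so the levels of genes with many shared words are given as uncertain. The ratio of the tools' mean TPM did not go closely with the share of words: Spearman's rho was 0.13 over the 80 genes, and the median ratio was 1.63, 1.73 and 1.78 in the 3 classes.

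Copies with a pseudogene suffix in their symbol were summed, and copies under other names, such as the processed pseudogene Gm7536 of Rpl27a (14.0 and 16.2 TPM), were not. Of 300 genes with the suffix 201 had 0 TPM in both libraries and 29 were detected. They summed to 107 TPM in replicate 1 and 174 TPM in replicate 2, which is 4.18% and 6.91% of the ribosomal protein sum. By the second tool they came to 9.64% and 11.6% of it. Rpl31-ps8, at 11.1 and 11.7 TPM, had the highest mean among those with the suffix. Of the ribosomal protein genes with 50% or more of their words shared, 31 of 35 were lower in replicate 2. Of those with less, 35 of 45 were lower, against 30.2% of all tested genes.

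The second tool ordered the genes much alike and set most of them lower. Across the 80 detected genes the log2 mean TPM of the tools had Pearson's r of 0.87 and Spearman's rho of 0.86, as a description over genes counted from the same reads. Rps12 differed most, with 61.3 and 51.7 TPM in the gene tables and 6.01 and 11.8 TPM by the second tool, a 6.34-fold difference of means. Its near copy Rps12-ps3, typed protein-coding, was at 0.240 and 0.410 TPM in the gene tables and at 25.2 and 8.19 TPM by the second tool. Rpl12 differed 5.12-fold (2.16 and 4.49 TPM by the second tool), with the transcribed copy Gm10275 at 0.760 and 1.28 TPM in the gene tables and at 14.0 and 19.97 TPM by the second tool. Rpl10 differed 3.31-fold (20.7 and 27.6 TPM by the second tool), while its copy Rpl10-ps3 was at 1.45 and 4.51 TPM in the gene tables and at 15.8 and 18.1 TPM by the second tool. Rpl38 and Rps16 followed at 2.13-fold and 2.12-fold.

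Rpl35a was the gene with the opposite difference, at 14.2 and 12.3 TPM in the gene tables and 23.1 and 29.4 TPM by the second tool, a ratio of 0.505. Rps7 was near equal at 0.944, and Rpl7l1 (1.09), Rpl39 (1.12) and Rpl36 (1.14) came next. The place of Rpl10 and Rps12 among the 10 highest genes therefore rests on the tool, whereas Rps24 (55.0 and 85.0 TPM by the second tool) and Rpl41 (47.1 and 70.2 TPM) had the highest means in both.

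**Figure D5:**
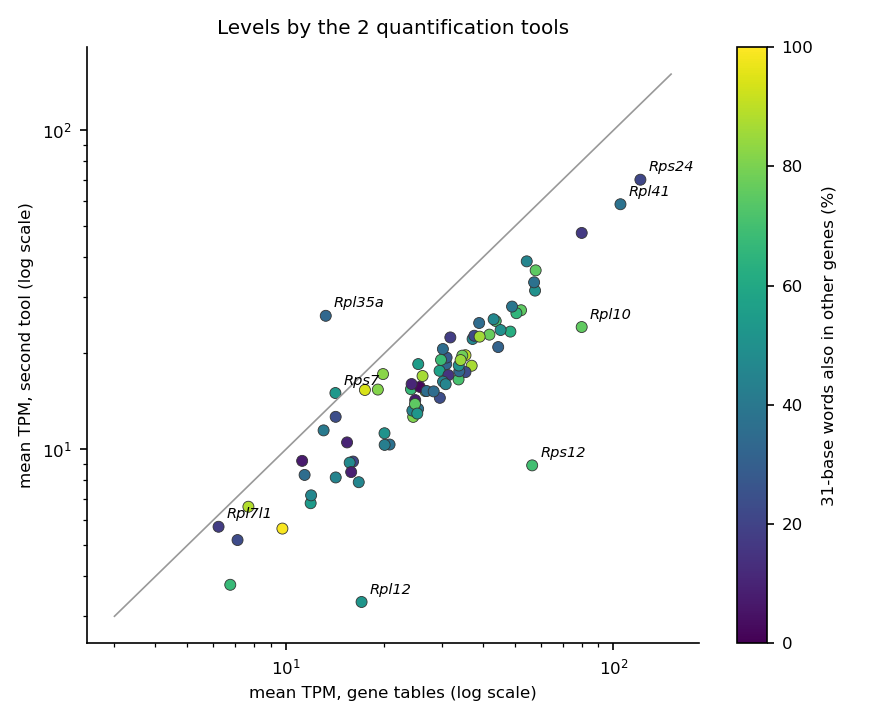
Mean TPM of the 80 detected ribosomal protein genes in the gene tables (horizontal, log axis) and by the second tool (vertical, log axis), coloured by the percentage of 31-base words that also occur in other genes; the line marks equal values. Most genes lie along a band below the line, Rps12 (6.34-fold), Rpl12 (5.12-fold) and Rpl10 (3.31-fold) fall beneath it, and Rpl35a lies above the line.

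Overlapping neighbours are a further limit where strand is not known to have been used in counting, which the sources used here do not give. Exons of 38 of the 83 genes overlap an exon of another gene, in many cases a snoRNA on the same strand. Strand would not separate same-strand overlaps. Among these are 47.0% of the exonic bases of Rpl24 (Gm28037), 29.4% of Rpl13a (Gm45713) and 20.6% of Rps10 (RPS10-NUDT3). Overlap with a gene on the opposite strand covers 66.2% of the exonic bases of Rpl35 (Wdr38), 59.7% of Rpl23a (Tlcd1), 25.3% of Rpl31 (Tbc1d8) and 24.3% of Rpl5 (Fam69a). It covers 17.2% of Rps25, whose opposite-strand neighbour Trappc4 was itself at 12.3 and 14.96 TPM. Reads of such pairs may not be separable, so the ratio of Rpl5 is to be read with this and with its shared words.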

How the data were processed

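Ribosomal-RNA-depleted nuclear RNA of 2 libraries of 1 group was measured. Per the file headers, the deposited tables of genes and transcripts give expected counts, which can be fractional, together with TPM and its credibility interval, in RSEM's column layout. A further deposited table of transcripts, in kallisto's column layout, gives estimated counts and TPM; the text calls it the second tool. Aligner, versions and strand setting are not given in the sources used here. Per the labels the build was mm10; gene identifiers matched GENCODE release M21, which gave symbols and coordinates.

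Counts were rounded. Genes with a mean of 10 or more (14698) were compared between the libraries by an exact binomial test with TMM sizes (edgeR 4.0.16, R 4.3.3). Benjamini-Hochberg adjustment was used, threshold 0.05. The test was also run on simulated counts, which held counting error only and so cannot show how it handles the spread between real libraries. Ratios used a prior count of 0.5. Depth was 28450309 and 16940220 counts.

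The genes and lists were chosen with earlier results of these data known. Named genes were the 10 highest, undetected genes, paralogs with partners, the 5 highest and lowest ratios, the 10 highest retained-intron and 5 highest decay shares, the 5 largest tool ratios each way, and the stalk and assembly genes; a few of these are not reported here. Alternatives were library-size and DESeq2 1.42.0 scaling, no count filter, other pseudocounts, rescaled TPM, the second tool and each library alone. Genes named for shared words, copies, pseudogenes, exon overlaps or snoRNA number were chosen after their values were seen.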

Additional observations from a re-analysis of the deposited data

How the results depend on the processing

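No paired analysis was possible because there is 1 group. Leaving out a library tests nothing here, since each of 2 values lies within 1 SD of their mean by construction; a ratio needs both. With 2 libraries the SD of a mean is itself poorly known, and genes under 3 counts could not be told from absent. The count of genes lower in replicate 2 was 66 with TMM, 66 with DESeq2 scaling, 67 without a count filter, 74 with the second tool (64 of them the same genes) and 56 with library-size scaling, under which 22.1% of all genes were lower and 39.2% higher and the median log2 ratio of all genes was 0.17. Among genes with under 50% of their words shared it was 35 of 45. Among those with an effective length of 400 nt or more it was 43 of 56. With TMM 30.2% of all tested genes were lower. Both of these subsets, and the length class, were chosen after seeing the data. The count higher was 4 with library size, and 1 each without a filter, with the second tool and with under 50% shared words. Relative to the median of all genes, the median log2 ratio was -0.41 in log2(TPM + 1) and -0.78 with the second tool; against the same length class it was -0.16.

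With the second tool the median level was 16.1 TPM, the sum 1463 TPM, the share on transcripts not typed protein-coding 27.5% and the retained-intron share 23.6%. With rescaled TPM the median was 104.5 and the sum 9219 TPM. Over detected genes the median was 27.6 TPM, and with the pseudogenes added the sum was 2688 TPM. Large minus small subunit was -0.12 with a pseudocount of 10 and -0.091 with the second tool. The difference to the respiratory chain was 1.496 with a pseudocount of 0.1, 0.92 with 10, 1.08 with the second tool and 1.35 over detected genes, and to the proteasome 0.36 with the second tool. Of the 80 gene ratios, 3 changed sign and were called before or after: Rpl3 (0.042 with library size), Rpl30 (-0.30 with the second tool) and Rpl31 (-0.53 with the second tool); the cause was not tested.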
